A study of Mus musculus with 1646 samples.

Results

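The genes of oxidative phosphorylation, nuclear and mitochondrial, were followed through the mesenchymal cells of the adult mouse colon. Members were the protein-coding rows of the count table (types from GENCODE vM21) whose symbols began with Nduf, Uqcr, Cox4, Cox5, Cox6, Cox7, Cox8, Atp5, mt-Nd, mt-Co, mt-Cytb or mt-Atp, or were Sdha, Sdhb, Sdhc or Sdhd, without regard to their levels. Of 46517 genes, 93 nuclear genes and 13 genes of the mitochondrial genome were members. By complex they were 43 genes of complex I, 4 of complex II, 9 of complex III, 23 of complex IV, 18 of complex V and 9 assembly factors or other genes.

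Oxidative phosphorylation takes place in the inner mitochondrial membrane. Complexes I and II feed electrons from NADH and succinate into the chain, complex III passes them to cytochrome c, complex IV reduces oxygen, and complex V (ATP synthase) makes ATP from the proton gradient. Complex II is built from nuclear genes alone, whereas the other complexes join nuclear subunits with subunits made inside the mitochondrion. Several nuclear subunits, above all of complex IV, exist as paralogs that replace each other by tissue. In Cox4i2 and Ndufa4l2, the counterparts of Cox4i1 and Ndufa4, low oxygen is known to raise expression, and both are known from lung and from vascular mural cells.

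Single cells were sorted from the colon of male mice aged 10-20 weeks and sequenced by the full-length SmartSeq2 protocol with 50-base single reads, and 1646 cells carried a cluster label from 1 to 8. All mice were on the C57Bl6/J background and carried a fluorescent reporter, driven by the promoter its name gives, which with antibodies served to enrich the cells. The lines were PdgfrbGFP with 761 cells on 4 plates, Acta2GFP with 567 cells on 2 plates, PdgfraGFP (a nuclear H2B-GFP knock-in) on 2 plates, and Cspg4dsRED with 91 cells on 1 plate. CD31-positive cells were excluded from the sort. Elastase was added for the Acta2GFP cells only, so that line and dissociation cannot be told apart. The study places clusters 7, 5, 1, 6 and 2 along the crypt from base to apex as fibroblasts, 1307 cells in all, and names cluster 3 vascular smooth muscle cells (SMC), cluster 4 pericytes and cluster 8 interstitial SMC, which together are the mural cells.

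Gene counts per cell ran from 47598 to 1494292 with a median of 248628, and the cluster medians from 118252 in interstitial SMC to 359677 in vascular SMC. The markers went with the labels: Pdgfra, Col1a1, Lum and Dpt summed to 3516-4135 per 500000 counts in the fibroblasts of the 4 lines and to 302.6-613.9 in mural cells, and Acta2, Myh11, Cnn1, Tagln and Des to 148.8-265.3 and 3917-9340. Markers of endothelial cells summed to 7.71-22.4 in fibroblasts and 11.2-17.1 in mural cells, and those of immune cells to 0.347-5.84 and 0.120-1.44. Of the interstitial cell of Cajal markers, Ano1 was higher in mural cells than in fibroblasts (231.5 ± 155.1 SD against 23.9 ± 10.3) while Kit was at 3.86 and 0.400. The Cspg4dsRED line, with 28 fibroblasts and 63 mural cells, stood apart in its nuclear members.

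Levels are given as counts per 500000 gene counts of a cell, the study's own scale, averaged over the cells of a class or cluster within a line. Means and SD are over lines. Differences were tested by edgeR's quasi-likelihood test on counts summed per class or cluster and line, with p-values adjusted over all genes tested, and a member is called at an adjusted p under 0.05. No mouse is named in the labels, so p-values measure the spread between lines or plates. The authors' clustering used these same counts, so tests between clusters or classes are not independent of that step. All but 4 members passed the filter on low counts in the class and cluster tests. These 4 were Cox7b2 and Cox8c with 0 counts in all cells, Cox6a2 with 1 count, and mt-Co2 with 33 counts in 33 cells.

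The 33 counts of mt-Co2, a catalytic core subunit of complex IV, contrasted with 688529 of mt-Co1, the other large core subunit. Between these lay mt-Nd3 with 1228 counts, mt-Co3 with 735 and mt-Nd4l, found in 22.8% of cells. The 60 bases at the start of 2 of these genes are shown because they bear on how the genes could be counted. Each is set beside a pseudogene on chromosome 1 of GRCm38 that copies it (mt-Co2 chrM:7013-7072, Gm28661 chr1:24615506-24615565 on the minus strand, mt-Nd3 chrM:9459-9518, Gm28438 chr1:24613060-24613119 on the minus strand). Capitals mark the bases at which a gene and its copy differ; the mt-Co2 pair has none.
mt-Co2: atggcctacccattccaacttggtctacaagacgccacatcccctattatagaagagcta
Gm28661: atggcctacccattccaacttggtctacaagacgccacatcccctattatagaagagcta
mt-Nd3: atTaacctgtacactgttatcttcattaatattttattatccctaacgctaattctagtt
Gm28438: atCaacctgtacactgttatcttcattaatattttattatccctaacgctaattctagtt

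Gm28661 matched mt-Co2 at 681 of 681 aligned bases, Gm28437 matched mt-Co3 at 783 of 783, Gm28438 matched mt-Nd3 at 99.7% with 1 mismatch, Gm10222 matched mt-Nd4l at 100% of its length, and Gm10925 matched mt-Atp6 at 678 of 678. For mt-Co1, a copy of part of the gene (Gm29216) matched at 99.8% with 1 mismatch. A read of 50 bases from inside such a stretch has more than one equal place in the genome. The share of all 50-base windows of a gene that also occur in another annotated gene was 100% for mt-Co2, 99.9% for mt-Co3, 99.5% for mt-Atp6, 98.8% for mt-Nd4l and 98% for mt-Nd3.

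These 5 genes took 1.32% of the counts of the 13 mitochondrial members, and 0.0694% without mt-Atp6, which shares 43 bases with mt-Atp8. At the other end, mt-Cytb, mt-Atp8, mt-Nd1 and mt-Nd6 share no such window, and their counts per kb and cell were 528, 467.3, 425.8 and 94.04. The genes in between were mt-Co1 at 270.7 with 51.1% of its windows shared, mt-Nd5 at 135.3 with 7.61%, mt-Nd4 at 130.6 with 62.2% and mt-Nd2 at 101.8 with 8.19%. Counts per kb were 39.1 for mt-Atp6, 2.14 for mt-Nd3, 0.904 for mt-Nd4l, 0.570 for mt-Co3 and 0.0293 for mt-Co2. All 5 members over 90% shared were lower than all 8 others. The 6 pseudogenes themselves held 5 to 49 counts each in the class sums. How reads with several places were handled is not given in the sources used here, and the levels of these 5 members are therefore not read as expression.

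**Figure D1:**
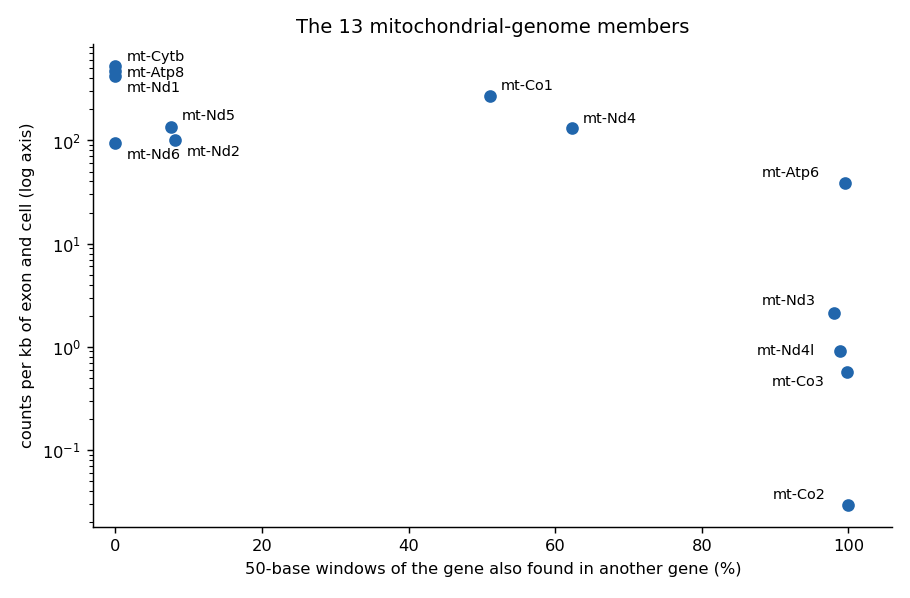
Counts per kb and cell (y axis, log scale) of the 13 mitochondrial members, 1 point each, against the percent of their 50-base windows that occur in another annotated gene (x axis). The 5 members over 90% lie between 0.0293 and 39.1, below the other 8, which lie between 94.04 and 528.

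Another limit is visible in the highest counts. Across 46005 genes with a length, the highest count of a gene in any cell passed 2 per exon base in 1 gene, which is 10 bases long, and the next highest value was 1.96. Among the members, 4 exceeded 1 count per base, with mt-Cytb at 1.77, mt-Nd1 at 1.45, mt-Atp8 at 1.39 and Cox4i2 at 1.22. The sum of the mitochondrial members moved with depth: in 3 equal groups of PdgfrbGFP fibroblasts of clusters 1 and 5, with median depths of 167521, 277577 and 563965 counts, it was 3900, 2697 and 2333 per 500000. The nuclear subunits in the same groups were at 4786, 4576 and 5020, without such an order. Sums of the mitochondrial members are therefore given also for cells of 100000 to 300000 counts, and the part of depth in the levels of single members was not tested otherwise.

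Summed by complex, the nuclear subunits were at higher levels in mural cells than in fibroblasts of the same line in each of the 3 lines that held both. Complex V was at 1538, 1311, 1561 and 1508 per 500000 in the fibroblasts of Acta2GFP, Cspg4dsRED, PdgfraGFP and PdgfrbGFP, and at 2423, 2113 and 2453 in the mural cells of Acta2GFP, Cspg4dsRED and PdgfrbGFP. The mitochondrial members summed to 3608, 3387, 3581 and 2910.0 in fibroblasts and to 5131, 5941 and 5981 in mural cells. In both sums every mural value lay above every fibroblast value. The nuclear subunits of complex I were at 1393, 811, 1858 and 1526 in fibroblasts and at 2109.6, 1409.6 and 2758 in mural cells. Here the classes overlapped across lines, through the low Cspg4dsRED values, but not within any line. The classes of PdgfrbGFP came largely from different plates. Mural cells made up 3.98, 3.10, 60.3 and 77.6% of the cells of its 4 plates. Fibroblasts on these plates, in the same order, were at 1708, 1331, 1312 and 2158 for complex I. For complex IV they were at 1063, 766, 779 and 1311. The part of the plate in the differences within PdgfrbGFP was not tested.

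As means over lines in fibroblasts and mural cells, complex I was at 1397 ± 436.8 and 2092 ± 674, complex II at 309.8 ± 45.3 and 478.04 ± 101.9, complex III at 411.7 ± 104.3 and 645 ± 206.8, complex IV at 829.6 ± 320.4 and 1549.6 ± 527 and complex V at 1479 ± 114.2 and 2329.5 ± 188.3 (SD, n = 4 and 3 lines). No test was made on sums. Within lines the mural level was 1.51 to 1.81 times the fibroblast level for complex I, 1.48 to 1.61 for II, 1.60 to 1.81 for III, 1.74 to 2.70 for IV, 1.58 to 1.63 for V and 1.42 to 2.06 for the mitochondrial members. The ratio of complex V differed least between lines and that of complex IV most. Cox4i2 and Ndufa4l2 carried much of the latter, with a sum of 13.04 ± 11.3 in fibroblasts and 431.5 ± 245.2 in mural cells. Without these 2 of its 20 nuclear genes (chosen after seeing the data) the ratio of complex IV was 1.48 to 1.66. The 9 assembly factors and other genes, among them the complex I assembly factors of the Ndufaf series, were at 86.2 ± 19.3 and 115.1 ± 30.8. At matched depth the ratios of the class means were 1.47, 1.53, 1.56, 1.84 and 1.56 for complexes I to V and 1.80 for the mitochondrial members.

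Among the mural clusters the sums over all cells were highest in vascular SMC. Complex V was at 3070.1, 2570.4 and 3022 in vascular SMC of Acta2GFP, Cspg4dsRED and PdgfrbGFP, at 1697 and 2018 in pericytes of Cspg4dsRED and PdgfrbGFP, and at 2055 in interstitial SMC, of which only Acta2GFP held 10 or more cells. Vascular SMC thus did not overlap the other mural clusters. Complex IV was at 1677 in vascular SMC, 1662 in pericytes and 1158 in interstitial SMC, and the lines of the first pair overlapped (996 to 2193 and 1209.9 to 2114). Of these sums Cox4i2 and Ndufa4l2 made up 408.4, 707 and 3.44. The other 18 genes were at 1269, 955 and 1154, with lines from 656 to 1691 in vascular SMC and from 552 to 1358 in pericytes. In cells of 100000 to 300000 counts complex IV was at 1606 in vascular SMC and 1813 in pericytes, and at 1147 and 987 without the pair. Acta2GFP had no pericytes, and in Cspg4dsRED and PdgfrbGFP, which held both, these 18 genes were at 491 and 1326 in vascular SMC and at 607 and 1367 in pericytes, so that the order of the means rested on the lines held. Complex II was at 633, 364.3 and 380.8, and the mitochondrial sum at 6485, 6008 and 3789.

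Among fibroblasts and over all cells, cluster 5 was lowest in the means of all 5 nuclear complexes, at 1267, 282.06, 363.5, 766 and 1329.6 for complexes I to V. It was also the only fibroblast cluster in which the low Cspg4dsRED line had enough cells (13), at 1108 for complex V and 687 for complex I. Its other lines lay at 1327 to 1480.0 for complex V, against 1538 to 1613 in cluster 1 and 1565.0 to 1694 in cluster 7, but they overlapped cluster 6 (1426 to 1602) and the apex (1315 to 1803). They were at 1367 to 1581 for complex I, which overlapped every other fibroblast cluster. In cells of 100000 to 300000 counts Cspg4dsRED and cluster 6 had too few cells, and cluster 7 kept Acta2GFP and PdgfrbGFP only. There cluster 5 had the lowest mean for complexes III and V (379.5 and 1309) but not for I, II and IV, and its lines overlapped those of the apex in all 5. The mitochondrial sum was highest in clusters 6 and 1, at 3967 and 3890.0, and lowest in cluster 7 at 2819 and in the apex cluster 2 at 2914. The lines of cluster 1 (3426 to 4241) did not overlap those of the apex (2825 to 3024) or of cluster 7 (2364 to 3350). In cells of 100000 to 300000 counts, cluster 1 was at 3403 to 4811, the apex at 2589 to 3188 and cluster 7 at 2544 and 3342, again without overlap, and vascular SMC and pericytes had means of 7107 and 6714.

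**Figure D2:**
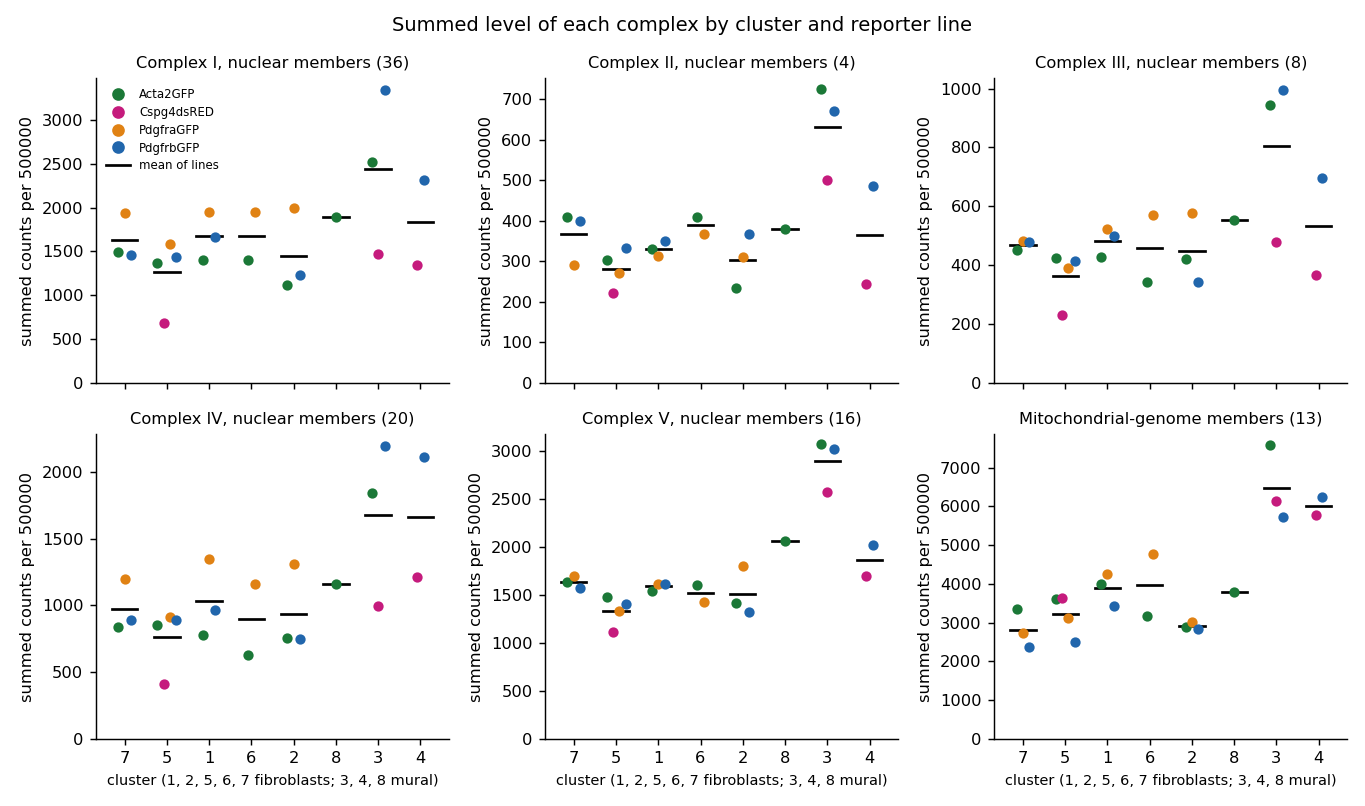
Summed level of the nuclear subunits of complexes I to V and of the mitochondrial members, in counts per 500000, (y axis) for each cluster (x axis, where 3 is vascular SMC, 4 pericytes and 8 interstitial SMC). Points are reporter lines and black bars are their means; in every panel the vascular SMC bar is the highest, for example 2887 for complex V.

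Levels of different genes were set side by side per kb, both of all annotated exons of a gene and of 1 transcript, that with the longest coding sequence (chosen after seeing the data). By either length the 5 highest nuclear members of fibroblasts were subunits of complexes IV and V, but their order and 1 of the 5 depended on the length used. Per kb of exon, in fibroblasts and mural cells, Cox8a was at 146.03 and 274.1 per 500000, Cox6a1 at 125.9 and 201.3, Cox4i1 at 120 and 164.5, Atp5a1 at 101.8 and 164.6, and Atp5b at 88.4 and 183.6. Per kb of transcript Cox4i1 came first in fibroblasts at 250.5 (342.2 in mural cells), followed by Atp5b at 195.45 (405.95), Cox8a at 164.35 (308.5) and Cox6a1 at 154.8 (247.5). Atp5a1 ranked 6 at 129.2 (208.8), behind another subunit of complex V. The 5 highest per kb of exon are the ubiquitous forms of 3 complex IV subunits and the alpha and beta subunits of the ATP synthase head. Within complex I, Ndufa2 and Ndufb9 were highest in fibroblasts by both lengths, at 85.4 and 68.05 per kb of exon and at 85.4 and 99.7 per kb of transcript. Within complex III, Uqcr10 was at 68.1 and 91.7 by the 2 lengths, Uqcr11 at 55.4 and 79.8 and Uqcrh at 52.1 and 117.8. Of succinate dehydrogenase, Sdha was at 33.6 and 47.8, Sdhb at 29.6 and 58.1, Sdhc at 20.7 and 21.2 and Sdhd at 30.4 by both. Sdha was thus highest per kb of exon and Sdhb per kb of transcript. The mitochondrial mt-Cytb, with 1 length, was at 885 in fibroblasts and 1469 in mural cells.

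The question of the first test was which members separate fibroblasts from mural cells. Mural cells were higher in 8 members tested and lower in 0, where 6.57% of all 19173 genes were called, 3.36% higher and 3.21% lower, so that the members' share was close to that of all genes. Among the 4191 genes at or above the level of the lower quartile of the nuclear members, 16.1% were called. At an unadjusted p under 0.05 there were 30 members higher and 1 lower, 31 in all, against 20.2% of all genes, and DESeq2 called 16 members, all higher, which is 15.8% of those it gave an adjusted p, beside 15.4% of all genes. The log2 fold change was above 0 in 90 members and below it in 12, with a median of 0.54 beside 0.03 for all genes. By group the medians were 0.50 in nuclear complex I with 33 of 36 above 0, 0.46 in II with 4 of 4, 0.60 in III with 8 of 8, 0.46 in IV with 12 of 17, 0.39 in V with 15 of 16, 0.38 in the assembly group with 6 of 9, and 0.99 in the mitochondrial genes with 12 of 12 (0.84 with 8 of 8 when the members over 90% shared are left out). No nuclear complex I member was called by edgeR, 9 of its 36 being at an unadjusted p under 0.05.

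With the reporter line as a block the count was 4, namely Ndufa4l2, Cox4i2, Sdhc and mt-Nd5 (3.92% of members tested, beside 3.08% of all genes). With plates as samples it was 27 (26.7% of members tested, beside 14.2% of all genes). The count moved with single lines, as did the share of all genes called. It fell to 1 without Acta2GFP, where 3 lines of fibroblasts met 2 of mural cells (3.24% of all genes). Without PdgfrbGFP it was 1 (1.81% of all genes) and without Cspg4dsRED 5 (5.66%). Without Cspg4dsRED the members that lost their call were Cox4i2, Uqcrc2 and Atp5b, with edgeR adjusted p of 0.0917, 0.0718 and 0.0520.

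**Figure D3:**
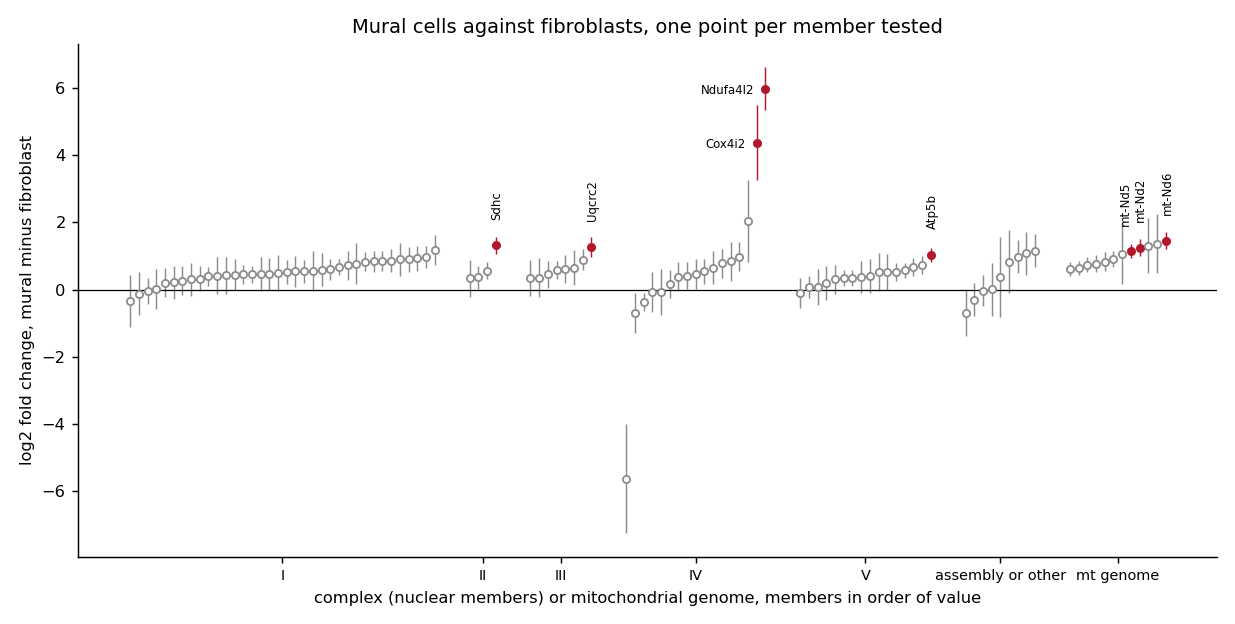
Log2 fold change of mural cells over fibroblasts (y axis) for each tested member, grouped by complex or mitochondrial genome and ordered by value within a group (x axis), with SE as error bars. Filled red points are the 8 members called, led by Ndufa4l2 at 5.98 and Cox4i2 at 4.38, and 90 points lie above 0.

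Ndufa4l2 differed most. This gene (ENSMUSG00000040280, chr10:127514967-127517154, plus strand, GRCm38) encodes a paralog of the complex IV subunit NDUFA4. Its level was 2.55, 3.18, 4.99 and 8.23 in the fibroblasts of Acta2GFP, Cspg4dsRED, PdgfraGFP and PdgfrbGFP, and 91.1, 300.7 and 361.6 in the mural cells of Acta2GFP, Cspg4dsRED and PdgfrbGFP. Mural and fibroblast values were far apart and did not overlap. The lines held different mural clusters, since 52 of the 84 mural cells of Acta2GFP were interstitial SMC, where the gene was at 0.82904, and those of the other lines were nearly all vascular SMC or pericytes, so that mural levels and differences between lines mix these shares. Its log2 fold change was 5.98 ± 0.64 (SE; edgeR adjusted p = 0.00104), and it was called under all 12 alternatives, with values from 5.64 to 6.45.

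Cox4i2 (ENSMUSG00000009876, chr2:152754173-152765037, plus strand) encodes the second isoform of subunit 4 of complex IV. Its fibroblast levels were 5.07, 0.391, 24.3 and 3.43 in the same order of lines, and its mural levels 66.4, 205.8 and 268.8. The classes did not overlap, though the fibroblasts of PdgfraGFP stood well above those of the other lines. PdgfraGFP also held the most apex cells, 55 beside 44 in Acta2GFP and 30 in PdgfrbGFP, while having fewer fibroblasts than either, and the apex was the fibroblast cluster high in Cox4i2. On the log2 scale the difference was 4.38 ± 1.11 (edgeR adjusted p = 0.0460). It was called in 8 of 11 alternatives and lost without Acta2GFP (edgeR adjusted p = 0.139), without Cspg4dsRED (0.0917) and without PdgfrbGFP (0.248).

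The ubiquitous partners were not called. Cox4i1 was at 190, 85.8, 261.99 and 208.9 in fibroblasts and 273.01, 128.3 and 363.5 in mural cells, and Ndufa4 at 46.1, 19.02, 73.9 and 43.9 against 80.1, 9.51 and 38.4. In both genes the classes overlapped across lines. Within every line that held both classes Cox4i1 was higher in mural cells, whereas Ndufa4 was higher there in Acta2GFP only. The paralogs can be told apart by 50-base reads: Cox4i1 and Cox4i2 were identical at 67.5% of aligned coding bases and Ndufa4 and Ndufa4l2 at 73.5%, and neither pair shared a 50-base window. The 90-base stretches are shown for this reason. They lie in the 3′ part of the coding sequences of Cox4i1 and Cox4i2, are taken from GENCODE vM21 transcripts, and have in capitals the bases that differ between the partners.
Cox4i1: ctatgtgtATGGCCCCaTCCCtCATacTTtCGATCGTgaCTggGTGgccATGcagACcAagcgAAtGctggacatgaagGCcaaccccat
Cox4i2: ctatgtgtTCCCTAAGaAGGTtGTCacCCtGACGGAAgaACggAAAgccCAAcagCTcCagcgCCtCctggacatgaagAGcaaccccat
For the Ndufa4 pair the stretches start at base 85 of the coding sequence of Ndufa4 and base 100 of that of Ndufa4l2, counted from 1 at the start codon, and hold the longest identical run of the pair, 28 bases.
Ndufa4: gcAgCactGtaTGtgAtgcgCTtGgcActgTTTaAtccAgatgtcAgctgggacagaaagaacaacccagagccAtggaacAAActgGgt
Ndufa4l2: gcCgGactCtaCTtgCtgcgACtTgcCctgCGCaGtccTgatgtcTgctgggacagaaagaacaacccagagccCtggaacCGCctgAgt

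The share of the second paralog in each pair, taken per kb of exon, separated the clusters. Cox4i2 made up 72.1% of the Cox4i pair in pericytes (65.02 and 79.2% in the 2 lines), 57% in vascular SMC (48.7 to 69.8%), 39.2% in the apex fibroblasts (36.8 to 42.6%) and 2.01% in interstitial SMC. In fibroblast clusters 1, 5, 6 and 7 it was 0.769, 0.563, 0.954 and 0.514%. Per kb of transcript the shares were lower, at 57.9% in pericytes (49.2 to 66.5%), 41.4% in vascular SMC (33.1 to 54.6%) and 25.2% in the apex (23.3 to 27.9%). By both lengths pericytes and vascular SMC overlapped, the apex lay below both, and the remaining clusters were near 0.

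Ndufa4l2 made up 98.6% of the Ndufa4 pair in pericytes (97.6 and 99.6%), 85.8% in vascular SMC (80.2 to 93.5%) and 26.4% in fibroblast cluster 5 (13.4 to 34.9%). It was at 1.55% in the apex, 1.17% in interstitial SMC, 3.52% in cluster 1, 2.66% in cluster 7 and 2.96% in cluster 6. Per kb of transcript the first 3 shares were 96.4% (94.01 to 98.9%), 70.65% (60.9 to 84.7%) and 12.4% (5.63 to 17.1%). By both lengths the order of these clusters held without overlap between lines. The pairs therefore differed in which fibroblast cluster used the paralog, the apex for Cox4i2 and cluster 5 for Ndufa4l2, at levels of 49.4, 98.5 and 37.4 for Cox4i2 in the apex (Acta2GFP, PdgfraGFP, PdgfrbGFP) and of 5.34, 6.07, 17.3 and 18.5 for Ndufa4l2 in cluster 5 (4 lines).

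**Figure D4:**
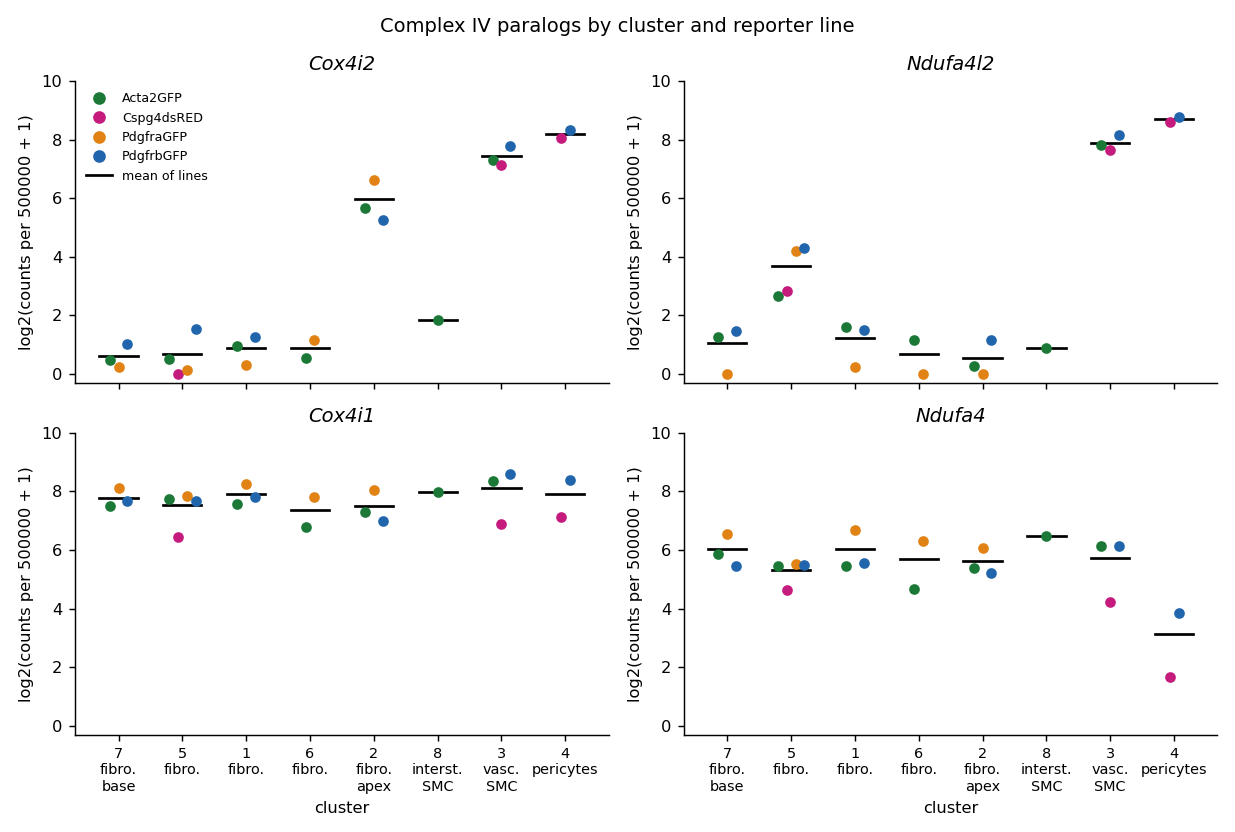
Level of Cox4i2, Ndufa4l2, Cox4i1 and Ndufa4 as log2(counts per 500000 + 1) (y axis) in each cluster (x axis), with reporter lines as points and the mean of lines as a black bar. Cox4i2 and Ndufa4l2 are high in vascular SMC and pericytes, the apex is high for Cox4i2 only (49.4, 98.5 and 37.4 per 500000 in its 3 lines), and cluster 5 has the highest Ndufa4l2 among fibroblasts (5.34 to 18.5).

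Of the other paralogs known from striated muscle or testis, all but Cox6b2 were low. Cox6a2, Cox7b2 and Cox8c were named above. Cox7a1 was at 0.313 ± 0.236 in fibroblasts and 1.56 ± 2.02 in mural cells and made up at most 7.79% of its pair with Cox7a2 in any cluster mean. Cox8b was at 0.389 ± 0.588 and 0.00147 ± 0.00255 (log2 fold change -5.64 ± 1.63, edgeR adjusted p = 0.0730). The striated muscle markers Ckm, Myh6, Tnni3 and Actn2 summed to 0.429-1.58 in fibroblasts and 0.300-2.22 in mural cells, with Myh6 at 0 in the latter. Cox6b2, the testis form of subunit 6b, was at 18.9 in cluster 1, 28.6 in cluster 6, 17.02 in interstitial SMC and 6.05, 2.00 and 6.07 in the 3 lines of vascular SMC, where its share of the Cox6b pair per kb of exon was 2.61%, beside 15.6% in cluster 1 and 25.2% in cluster 6. Per kb of transcript these shares were 6.16, 31.2 and 45.4%.

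Outside complex IV the called members came from complexes I, II, III and V. Sdhc, a membrane anchor of succinate dehydrogenase (chr1:171127165-171150603, minus strand), was at 74.3, 51.5, 65.5 and 78.1 in fibroblasts and 164.2, 118.1 and 207.5 in mural cells, with no overlap. Its log2 fold change was 1.32 ± 0.25 (edgeR adjusted p = 0.0146). The other subunits, Sdha at 138.7 ± 21.6 and 186.6 ± 15.4, Sdhb at 66.4 ± 27.1 and 84.95 ± 31.1 and Sdhd at 37.5 ± 15.98 and 43.2 ± 13.4, were not called. Uqcrc2, a core protein of complex III (chr7:120635176-120659524, plus strand), was at 55.9, 37.2, 38.3 and 45.7 against 87.5, 89.9 and 133.2 (log2 fold change 1.27 ± 0.29, edgeR adjusted p = 0.0312). These classes did not overlap, but with the line as a block its adjusted p was 0.127 and it kept its call in 5 of 12 alternatives.

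Atp5b, the catalytic beta subunit of ATP synthase (chr10:128083273-128090391, plus strand), was at 414.5, 383.5, 315.8 and 384 in fibroblasts and 773, 846 and 715 in mural cells. No fibroblast value came near a mural one. The log2 fold change was 1.02 ± 0.21 (edgeR adjusted p = 0.0183; 0.0640 with the block), while the alpha subunit Atp5a1, at 316.5, 392.2, 256.4 and 312.1 against 581, 517 and 449.9, had 0.73 with an adjusted p of 0.147. Of the mitochondrial genes mt-Nd5, a membrane-arm subunit of complex I, was at 291.7, 320, 465.1 and 275.9 against 502, 634 and 759 (1.14 ± 0.21, edgeR adjusted p = 0.0117). mt-Nd6, encoded on the opposite strand with 14 bases shared with mt-Nd5, was at 58.9, 45.4, 66.1 and 53.03 against 89.6, 106.5 and 192.4 (1.46 ± 0.26, edgeR adjusted p = 0.0109), and mt-Nd2 at 150.4, 88.7, 170.2 and 102.95 against 256.3, 225.99 and 367.97 (1.25 ± 0.26, edgeR adjusted p = 0.0204). The lowest mural value exceeded the highest fibroblast value in all 3. Under the block mt-Nd6 and mt-Nd2 were at adjusted p of 0.0533 and 0.0518.

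Lists of other genes of mitochondrial energy supply were read from the same test, in which 3.36% of all genes were higher and 3.21% lower. Of 13 TCA cycle genes 2 (15.4%) were higher in mural cells, citrate synthase Cs (162.8 ± 22.8 against 93.6 ± 8.86) and Idh3g (151.9 ± 26.7 against 73.2 ± 18.02), and the list's median log2 fold change was 0.83. Of 9 carriers and coupling genes 2 (22.2%) were higher, the ADP/ATP carrier Slc25a5 (119.1 ± 18.7 against 65.3 ± 9.30) and Higd1b (23.4 ± 18.1 against 0.105 ± 0.166), which belongs to a gene family that includes complex IV assembly factors. Of 14 regulators of mitochondrial genes, such as Ppargc1a, Nrf1 and Tfam, 0 were called by edgeR (median 0.26), and of 2 mitochondrial rRNAs 0 (median 0.43). Of 18 glycolysis genes Ldhb, the lactate dehydrogenase subunit of oxidative tissues, was higher (64.4 ± 3.34 against 15.5 ± 6.76). Of 13 hypoxia target genes 0 were higher and 3 lower in mural cells, namely Egln3, Adm and Ndrg1, with log2 fold changes of -5.28, -2.41 and -1.81. The median of that list was -0.14, and the part of low oxygen in any of these values was not tested. Of 16 genes known to respond to dissociation 3 were higher in mural cells.

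Pericytes were then compared with vascular SMC, and edgeR called 0 members where 0.819% of all 21739 genes were called, 0.621% higher and 0.198% lower. Changes of 2 on the log2 scale, put into simulated counts at the members' levels, were seldom found in this comparison, so that 0 calls do not show that the clusters are alike. At an unadjusted p under 0.05 there were 11 members, all lower in pericytes, against 12.7% of all genes, and DESeq2 called 7, all lower (5.59% of all genes). Log2 fold changes were above 0 in 12 members and had a median of -0.46, beside 0 for all genes. With the line as a block 2 were called (1.96% of members tested, beside 0.994% of all genes). Both were lower in pericytes: Atp5a1 (-1.01, edgeR adjusted p = 0.00830) and Ndufa4 (-2.39, edgeR adjusted p = 0.0240). Atp5a1 was at 370.3 and 334.1 in pericytes and 672, 679 and 599 in vascular SMC, with no overlap. Ndufa4 was at 2.17 and 13.4 in pericytes and 70.1, 17.6 and 69.9 in vascular SMC, where the lowest value was that of Cspg4dsRED and still above both pericyte values. Without the block the edgeR adjusted p was 0.0587 for Atp5a1 and 0.124 for Ndufa4. With plates as samples Ndufa4 was again lower (-2.48, edgeR adjusted p = 0.0237) and Cox6b2 higher (3.03, edgeR adjusted p = 0.0320). These were 1.96% of members tested, beside 3.23% of all genes.

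Both hypoxia-linked paralogs were high in pericytes and vascular SMC alike. Ndufa4l2 was at 391.1 and 435.9 in pericytes and 225.3, 201.3 and 284.9 in vascular SMC, and Cox4i2 at 266.98 and 319.97 and at 158.4, 138.5 and 216.9. The pericyte values lay above the smooth muscle values in both genes, but the differences (0.59 ± 1.28 and 0.69 ± 0.89 on the log2 scale, SE) were smaller than or close to their errors. Of the dissociation genes, 8 of 16 were lower in pericytes than in vascular SMC, and their part in these differences was not tested. The TCA cycle list had 0 of 13 calls by edgeR and a median of -0.92, and glycolysis 0 of 18 and -0.68.

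Interstitial SMC, present with enough cells in Acta2GFP only, differed from vascular SMC in 1 member called, which was lower, against 1.01% of all genes (0.879% higher and 0.129% lower), and in 7 members at an unadjusted p under 0.05, against 9.51%. This member was mt-Nd5, at 282.5 in interstitial SMC and 902, 655 and 855 in vascular SMC, a log2 fold change of -1.59. As interstitial SMC are a single sum, the error (SE 0.37) and edgeR's adjusted p of 0.0398 take the spread of the other clusters and hold none of their own, and the call held in only 4 of 10 alternatives. Both paralogs were low in interstitial SMC: Cox4i2 was at 2.61 against 158.4, 138.5 and 216.9, and Ndufa4l2 at 0.82904 against 225.3, 201.3 and 284.9. Their log2 fold changes of -6.54 ± 1.73 and -7.13 ± 2.56 rested on 1 sum and had edgeR adjusted p of 0.0803 and 0.268. Both were called by DESeq2 (adjusted p = 3.7e-05 and 0.00936) and with plates as samples (edgeR adjusted p = 0.0129 and 0.0394). In the same cells Ndufa4 was at 88.5 and Atp5b at 599.9. DESeq2 called 5 members and the block 2, all lower, beside 5.12 and 1.07% of all genes.

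Within fibroblasts 1 member marked the apex. Cox4i2 was at 49.4, 98.5 and 37.4 in the apex cells of Acta2GFP, PdgfraGFP and PdgfrbGFP, and at 0 to 1.86 in every line of clusters 1, 5 and 7. The log2 fold change against the mean of these clusters was 6.86 ± 0.64 (edgeR adjusted p = 7.27e-07), and all 12 alternatives kept it, at 6.15 to 8.20. It was the only call by edgeR among the members where 6.28% of all genes, and 4.42% in this direction, were called. At an unadjusted p under 0.05 there were 2 members, against 16.9% of all genes, and both DESeq2 and the block called 2 (9.48 and 5.95% of all genes). The median of the members was 0.05, beside -0.09 for all genes, with 59 members above 0. 

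The apex level of Cox4i2 was next taken by plate, on the 5 plates with at least 5 apex cells. The 9 apex cells on 3 further plates were left out of this. Mean levels were 48.4 and 28.6 on the plates of PdgfrbGFP, 106.9 and 91.5 on those of PdgfraGFP and 45.9 on that of Acta2GFP, and 0.143 to 1.94 in cells of clusters 1, 5 and 7 on the same plates. Of the apex cells 93 (70.99%, exact binomial 95% interval 62.4 to 78.6%) had a count, and 55.7% when each cell was thinned to 50000 counts. Thinned shares were 6.86, 9.43 and 7.73% in clusters 1, 5 and 7 (23.2, 26.4 and 23.8% unthinned), 92.9% in vascular SMC and 79.3% in pericytes. Cells were amplified without molecular identifiers, so such intervals cover counting error only.

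The mural genes were read in the 74 apex cells above 10 per 500000 of Cox4i2 and in the 38 without a count of it. Means of Rgs5 were 3.96 in the former and 1.35 in the latter, beside 3120.0 in pericytes and 956 in vascular SMC. Kcnj8 was at 31.3 and 11.7, beside 477.9 and 29.3, and Cspg4 at 19.8 and 12.7, beside 370 and 230.5. All 3 means were thus higher in the apex cells with Cox4i2 than in those without, with medians of 0 in both, and that of Kcnj8 was near the vascular SMC mean. Ndufa4l2 was at 0.334 and 0.204, beside 417.7 and 254.8, and Higd1b at 0 in both, beside 57.6 and 10.4. The part of mural RNA in the level of Cox4i2 was not tested. The fibroblast genes Pdgfra and Tnc were at 1073 and 2037 in the apex cells with Cox4i2 and at 987 and 1961 in those without. Ano1, a chloride channel gene at 294.96 in pericytes and 283.6 in vascular SMC, was likewise higher in the apex than in clusters 1, 5 and 7 (170.8 ± 64.2 in the apex, 1.06 in cluster 1). In the same contrast 14 of 16 dissociation genes were higher in the apex, with a median log2 fold change of 1.95, and their part in the level of Cox4i2 was not tested. Of 18 glycolysis genes 4 were higher, the glucose transporter Slc2a1 (4.36), Hk2 (2.91), Slc16a3 (2.75) and Pkm (1.64). Of 13 hypoxia targets 3 were higher, Ankrd37 (3.95), Vegfa (3.39) and Slc2a1, and Ucp2 of the inner membrane carriers was higher by 4.47 on the log2 scale (360.8 ± 56.9 in the apex, 34.3 ± 18.4 in cluster 1).

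At the crypt base, cluster 7 was compared with cluster 1. edgeR called 0 members where 0.488% of all genes were called, DESeq2 called 0, and 2 members had an unadjusted p under 0.05, both lower in cluster 7, against 9.04% of all genes. The median was -0.07, beside -0.10 for all genes. The mitochondrial members were below 0 in 12 of 12, with a median of -0.35 (8 of 8 and -0.36 without those over 90% shared), and cluster 7 cells were the deeper ones (median 311916 against 229006 counts). Among the other lists Ucp2 was lower (-3.03) and Ndrg1 higher (1.93) in cluster 7.

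Reporter lines were compared in the cells of cluster 1, with plates as samples (Acta2GFP 2, PdgfraGFP 2, PdgfrbGFP 4). edgeR called 0 of 100 members and 0 of 15700 genes (0%) in each of 3 pairs of lines. At an unadjusted p under 0.05 there were 2 members for Acta2GFP against PdgfrbGFP, 0 for PdgfraGFP against PdgfrbGFP and 10 for Acta2GFP against PdgfraGFP, all of them lower in Acta2GFP, where all genes gave 2.77, 6.75 and 5.52%. DESeq2 called 0 members in each pair. The medians of the members were -0.27, 0.34 and -0.50, so that by medians PdgfraGFP stood highest and Acta2GFP lowest. By plate the lines overlapped. The nuclear subunits in cluster 1 summed to 7365 and 4793 on the plates of PdgfraGFP and to 3773 and 5184 on those of Acta2GFP. On the plates of PdgfrbGFP they were at 5421, 4613, 4558 and 6736. Within each line the plate with the deepest cluster 1 cells had the highest sum. The part of plate or depth in the order of lines was not tested.

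Cspg4dsRED, with too few cluster 1 cells for that test, had the lowest nuclear levels of the 4 lines, and transcript length went along with it. Nuclear members at 5 or more per 500000 (86 in fibroblasts) were split by transcript length into tertiles of up to 590, 596-1046 and 1079-3632 bases. With 1 added to each level, the median ratio of Cspg4dsRED fibroblasts to the mean of the other lines was 0.360 in the shortest tertile with 0 of 29 members above the other lines, 0.403 in the middle one with 0 of 28 and 0.656 in the longest with 5 of 29. PdgfraGFP showed the opposite order, at 1.66, 1.66 and 1.16, while Acta2GFP (1.05, 0.959 and 1.06) and PdgfrbGFP (1.12, 1.10 and 1.13) showed none. Across members, Spearman's rho of length and ratio was 0.51 for Cspg4dsRED and -0.59 for PdgfraGFP; members share libraries and are not replicates. In mural cells the median ratios were 0.345, 0.494 and 0.678 for Cspg4dsRED, 1.32, 0.988 and 1.02 for Acta2GFP and 1.52, 1.81 and 1.31 for PdgfrbGFP, with rho of 0.49, -0.40 and -0.24, so that Acta2GFP differed in this from its fibroblasts. The fibroblasts of Cspg4dsRED had a median of 177368 counts per cell, where the plates ran from 105621 to 1068290.

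**Figure D5:**
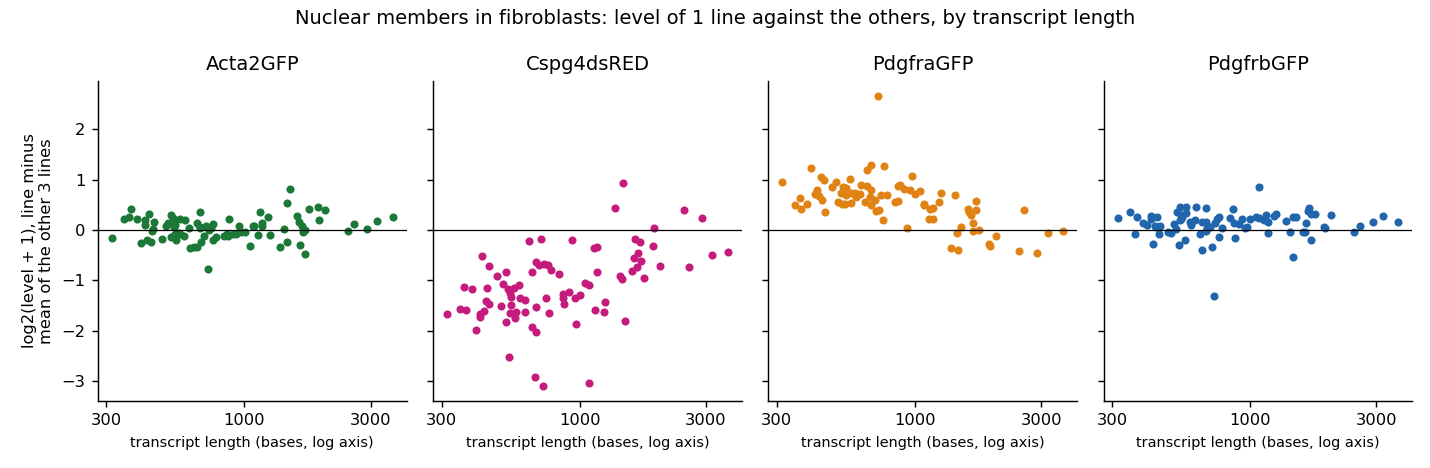
Difference in log2(level + 1) between each line's fibroblasts and the mean of the other lines (y axis) against transcript length in bases (log axis) for 86 nuclear members, 1 panel per line. Cspg4dsRED lies below 0 for short transcripts (median ratio 0.360) and nearer to 0 for long ones (0.656), and PdgfraGFP shows the reverse.

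The nuclear members are scattered over the genome, so shared sequence was looked for in their promoters. Promoters of 250 bases before the start were available from RefSeq (GRCm38.p6) for 74 members and 27025 genes in all. Cox4i2 and Ndufa4l2 are not among these 74. The NRF1 core CGCATGCG was found on either strand in 8 of 74 members (10.8%) and in 1.55% of all promoters, and CGGAAG, the core bound by ETS factors such as GABPA, in 25 (33.8%) and 13.8%. The hypoxia cores ACGTG and GCGTG were in 18.9 and 41.9% of members and 16.4 and 28% of all promoters, AAGATGGC in 1.35 and 1.58%, and TATAAA in 8.11 and 12.9%. The median GC content was 56.4% in members and 52% in all, and none of these shares was tested. A match is a run of letters and not a shown binding site. Of the 5 promoters with both of the first 2 motifs, 3 are shown here, those of a c-subunit gene of complex V, an abundant complex IV subunit, and an assembly factor of complex I (Atp5g2 chr15:102671048-102671297 minus, Cox6a1 chr5:115348959-115349208 minus, Ndufaf4 chr4:24897833-24898082 plus). Both motifs are in capitals, in either orientation.
Atp5g2: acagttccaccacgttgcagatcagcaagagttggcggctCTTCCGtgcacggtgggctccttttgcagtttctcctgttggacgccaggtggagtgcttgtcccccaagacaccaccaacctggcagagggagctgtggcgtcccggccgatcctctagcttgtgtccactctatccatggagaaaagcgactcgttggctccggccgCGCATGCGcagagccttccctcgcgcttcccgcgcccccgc
Cox6a1: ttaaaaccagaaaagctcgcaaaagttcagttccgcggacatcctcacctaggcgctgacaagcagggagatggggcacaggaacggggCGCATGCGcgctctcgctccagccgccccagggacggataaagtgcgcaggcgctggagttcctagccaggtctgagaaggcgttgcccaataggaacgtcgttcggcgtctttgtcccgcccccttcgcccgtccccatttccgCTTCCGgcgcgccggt
Ndufaf4: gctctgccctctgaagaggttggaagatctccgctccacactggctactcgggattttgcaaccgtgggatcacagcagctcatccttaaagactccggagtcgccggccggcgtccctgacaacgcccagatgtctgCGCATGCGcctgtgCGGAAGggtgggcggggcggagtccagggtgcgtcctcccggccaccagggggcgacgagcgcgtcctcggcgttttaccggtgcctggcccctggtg

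Levels of some nuclear members are uncertain for the same reason as in the mitochondrial genes. Of the nuclear members 45 had no 50-base window in another annotated gene, 30 had more than 10% and 7 more than 50%, namely Atp5g2 at 100%, Atp5l, Atp5h, Atp5g1, Ndufa12, Cox7c and Atp5o. The c-subunit genes Atp5g1, Atp5g2 and Atp5g3, which encode the same mature protein, were at 33.6, 23.3 and 49.1 in fibroblasts and 30.1, 34.7 and 83.03 in mural cells, and none of the 3 was called. Their levels relative to each other are not read further.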

How the data were processed

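Raw counts of 1646 SmartSeq2 cells from mouse colon were taken as deposited. The authors demultiplexed the reads with bcl2fastq, trimmed them with trim galore, aligned them to GRCm38 (mm10) with TopHat2 and Bowtie, and counted reads per gene with featureCounts. Between mapping and counting they removed doublets with samtools, without saying whether reads or cells are meant. They removed cells with few counts or genes and cells with many genes as potential doublets. Where needed, they also removed cells with over 10% of reads on mitochondrial genes or spike-ins, a filter that bears on the mitochondrial members. No doublet caller was run here. Library sizes and tests did without the 92 spike-in rows, which held 1.36% of counts. Cells were grouped by the cluster and reporter line of their labels. Clusters 1, 2, 5, 6 and 7 were fibroblasts and 3, 4 and 8 mural cells. The members and lists were chosen with earlier results of these data known.

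The counts of the cells of a class or cluster were added up per line, where it held 10 or more of them (2202988 to 217742647 counts per sum), or within plates for the comparison of lines, and tested with edgeR 4.0.16 in R 4.3.3 (TMM, filterByExpr, quasi-likelihood F test, Benjamini-Hochberg adjustment over all genes tested). A standard error is the log2 fold change divided by the root of F. All clusters shared one fit, so that interstitial SMC, a single sum, were assumed to vary like the others. Levels scaled each cell to 500000 gene counts. The 11 cells under 50000 counts were left out of thinned shares. Python 3.11.15, numpy 2.4.6, pandas 2.3.3, scipy 1.17.1 and matplotlib 3.10.9 were used elsewhere. The tests were first tried on simulated counts. Of changes of 2 on the log2 scale at the members' levels most went uncalled in every comparison, and nearly all in pericytes and in interstitial SMC against vascular SMC and in Acta2GFP against PdgfraGFP, so that few calls there do not show likeness.

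Genes were named by rule: members with a tissue isoform or paralog, the Sdh genes, the 13 mitochondrial genes, up to 5 called members per direction and comparison with the largest change, and the 3 nuclear members per complex with the highest level per kb. One gene that the rule names is not reported here. Other genes are named from the lists, and plates and alternatives where a result turns on them. Ndufa12, Cox7c, Atp5h, Atp5l, Atp5o, Atp5a1 and Ndufaf4 were named after their values or sequences were seen, where the rule did not already hold them.

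Whether sums of the same line move together was checked by the correlation, over genes, of their deviations from the group means. It was 0.152, 0.166 and 0.176 for the lines holding fibroblasts and mural cells, 0.167 and 0.177 for pericytes and vascular SMC, 0.117 to 0.173 for the apex and 0.120 to 0.170 for clusters 7 and 1. The pairing comes from the reporter line in the labels, and fits with the line as a replicate block were therefore made beside the others. Alternatives were DESeq2 1.42.0, its size factors in edgeR (RLE), no filter on low counts, at least 3 cells per sum, plates as samples, a total without the mitochondrial genome, leaving out each line or plate, and, added after seeing the data, cells of 100000 to 300000 counts only, complex IV without Cox4i2 and Ndufa4l2, and levels per kb of 1 transcript. Annotation was GENCODE vM21, which is on GRCm38.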

Additional observations from a re-analysis of the deposited data

Results flagged for a closer look

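In 68 groups of 4 samples, the highest or the lowest value was set against the others by Dixon's ratio, which flags about 1 in 20 groups by chance, and 5 were flagged. Cspg4dsRED gave 3 of them, each as the lowest line: the nuclear complex IV sum in cluster 5 at 412.8 per 500000, where the other lines lay at 855 to 910.1, the sum of all nuclear subunits in cluster 5 at 2657 (4428 to 4478), and Sdhb in fibroblasts at 25.8 (77.7 to 82.5). Cox8b, the muscle form of subunit 8, was at 1.26 in the fibroblasts of PdgfraGFP and at 0 to 0.205 in the other lines. Cox6a2, the muscle form of subunit 6a, was at 0.00352 in the fibroblasts of Acta2GFP and 0 elsewhere, which is its single count in all cells.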

How the results depend on the processing

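The members higher in mural cells than in fibroblasts numbered 8, where 6.57% of all genes were called. By DESeq2 they were 16 (15.4% of all genes), with plates as samples 27 (14.2%) and with a total without the mitochondrial genome 5 (6.57%). In cells of 100000 to 300000 counts (chosen after seeing the data) they were 4 (4.09%), and with the reporter line as a replicate block 4 (3.08%). They were 1 to 6 when each line was left out. These were 1 without Acta2GFP (3.24%), 1 without PdgfrbGFP (1.81%), 5 without Cspg4dsRED (5.66%) and 6 without PdgfraGFP (5.81%). Pericytes against vascular SMC gave 0 members, 7 by DESeq2, 2 with plates as samples, 2 with the replicate block and 0 when each line was left out. Interstitial against vascular SMC gave 1, but 5 by DESeq2, 0 with RLE size factors, 2 with at least 3 cells per sum, 2 with plates as samples, 0 without the mitochondrial genome, 2 in cells of 100000 to 300000 counts, 2 with the replicate block and 0 to 3 when each line was left out (0 without PdgfrbGFP, 3 without PdgfraGFP). It gave no value without Acta2GFP, the only line with 10 or more cells of cluster 8. The apex gave 1 (6.28% of all genes), with 2 by DESeq2 (9.48%) and 2 with the replicate block (5.95%). When each line was left out it gave 1 to 2 (2 without Cspg4dsRED, beside 7.41% of all genes). Cluster 7 against cluster 1 and the lines in cluster 1 gave 0 members under every alternative run. The replicate block was run for cluster 7 against cluster 1 only, since it cannot be set where lines are compared. The cause of these shifts was not tested. Of 3957 values of single named members under an alternative, 3882 kept direction and side of the threshold, 40 passed it, 35 lost it and 0 reversed.

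The fibroblast level of nuclear complex II was 261.3 as a median over cells (309.8 as reported). The mitochondrial sum was 2909 in pooled counts and 2889 as a median over cells in fibroblasts (3372 as reported), and 5036 and 4864 in mural cells (5684). Interstitial SMC rest on 52 cells of 1 line, pericytes on 2 lines and Cspg4dsRED on 1 plate, so that for Cspg4dsRED line and plate cannot be told apart.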

Other observations

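Across single cells, the levels of Cox4i2 and Ndufa4l2 had a Spearman's rho of 0.456 in vascular SMC, 0.409 in pericytes and 0.232 over the 56 interstitial SMC. These are descriptions over cells that share plates, lines and a range of depths, and no test was made of them. In fibroblasts, 70.99% of apex cells had a count of Cox4i2 and 12.98% one of Ndufa4l2, whereas in cluster 5 these shares were 26.4% and 38.4%. Thinned to 50000 counts per cell the shares were 55.7% and 3.05% in the apex and 9.43% and 18.6% in cluster 5.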
